A study of Drosophila melanogaster with 23 samples.

Results

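The genes described here are 35 Drosophila genes that encode proteins of the muscle sarcomere or of the machinery attached to it, and their transcript levels were examined in adult fly heads. They were chosen by name, as a list of gene symbols matched to identifiers through a table of gene names; the rule used no measured value, although the list was drawn up with earlier results of these data known. The 5 tables for wild type and the single heterozygotes held 17559 genes, among them 34 of the 35. The exception was wupA (troponin I), whose current identifier was found only in the table of the double heterozygote. A minimum of 10 normalized counts in at least 4 of the 20 libraries left 9588 genes for testing, and 31 of the sarcomere genes were among them. Act88F, TpnC4 and Zasp67 were found but lay under this minimum.

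The study asked how heterozygous loss of autism-associated genes alters synaptic homeostasis, and it profiled RNA from heads of flies 5 to 7 days after pupation by sequencing the 3' ends of transcripts. Wild type (w1118), ASH1L/+, WDFY3/+, CHD2/+ and CHD8/+ flies gave 4 libraries each, and CHD8/+; PPP2R5D/+ flies gave 3. The human names stand for the fly genes ash1, bchs, Chd1, kis and wrd, and the methods list the alleles ash1-mimic, bchs58, Chd2[1], kis1 and wrd104. All flies were raised on the same food and temperature, and every mutant carried 1 mutated copy of its gene. The methods place stocks on the w1118 background in a sentence about deficiency stocks. Whether this covers the alleles used here is not clear from it. Each mutation came from 1 stock, so the mutation and the rest of its stock cannot be told apart.

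A sarcomere is the repeating contractile unit of striated muscle. Myosin thick filaments slide past actin thin filaments, troponin and tropomyosin make this depend on calcium, Z-discs anchor the thin filaments, and titin-like proteins tie thick filaments to the Z-disc. Calcium for contraction is released from the sarcoplasmic reticulum and pumped back by SERCA. In the adult head, striated muscles move the proboscis, the pharynx and the antennae, and all of these are of the tubular type, while the fibrillar indirect flight muscles lie in the thorax. Several members of the list also work outside muscle, among them the actin capping proteins, alpha-actinin, a tropomyosin, SERCA and the nuclear-envelope protein Msp300.

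Values are normalized counts, which are estimated counts that the authors scaled to make libraries comparable. They are not given per transcript length, so a gene was compared between libraries and not with other genes. Each library summed to between 3982753 and 8558268 normalized counts, and its depth in reads is not given by these values. Of the mutated genes, Chd1 had 143 ± 49.4 normalized counts in CHD2/+ and 292 ± 108 in wild type, and ash1 had 67.5 ± 53.6 in ASH1L/+ and 91.03 ± 67.7 in wild type (SD, n = 4). In WDFY3/+, bchs had 246 ± 88.1 against 222 ± 87.7 in wild type, and in CHD8/+, kis had 1191 ± 989 against 1308 ± 869. All 4 mutated genes had ranges that overlapped those of wild type. Over all genes tested, replicate number accounted for 81.3% of the first principal component, which held 32.8% of the variance, and genotype for 9.82%. The 16 cuticle and epidermis markers summed to 793 to 1455.5 normalized counts in wild type and to 2849 to 7192 in CHD8/+, with Cpr47Eg and Cpr66Cb at 0 in 15 libraries each. Their mean on the log2(normalized counts + 1) scale was 6.39, 6.09 and 5.34 in CHD8/+ replicates 2, 3 and 4 and 6.34 in CHD2/+ replicate 2, against 3.11 to 4.22 in the other 16 libraries.

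The label of the list fitted most but not all of its members in these heads. Of the 4 genes grouped here as flight muscle genes, Act88F and TpnC4 were at or near 0 and fln and TpnC41C were not. The grouping was set beforehand and does not mean that each gene is restricted to that muscle. Act88F, the flight muscle actin, ranged from 0 to 21.3 normalized counts and TpnC4, the flight muscle troponin C that responds to stretch, from 0 to 19.2. Zasp67, a member of the Z-disc PDZ-LIM family, ranged from 0 to 17.99 normalized counts. TpnC47D, a troponin C of tubular muscle, was also low, from 0 to 55.5, and passed the minimum through its higher libraries. The remaining sarcomere genes were detected in every library.

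Among the thick filament genes, Mhc, the muscle myosin heavy chain, ranged from 1124 to 5124 normalized counts over the 20 libraries with a median of 2199. The essential light chain Mlc1 ranged from 254 to 3624 and the regulatory light chain Mlc2 from 4460 to 47030. Prm, paramyosin, which forms the core of the thick filament, ranged from 388 to 1973. Mf, myofilin, another core protein, ranged from 2731 to 8882. Flightin (fln), which binds the myosin rod and is best known from indirect flight muscle, ranged from 21.8 to 418. The giant proteins of this group were bt (projectin, 1344 to 7001 normalized counts), Unc-89 (obscurin of the M-line, 14.9 to 122) and Strn-Mlck (a giant immunoglobulin-domain protein of the myosin light chain kinase family, 1107 to 6270).

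Among thin filament genes, the actins of tubular and body wall muscle ranged widely. Act57B had 43.6 to 1405 normalized counts, Act79B 20.5 to 427 and Act87E 249 to 1619. Troponin T (up) ranged from 937 to 8570. The troponin C genes TpnC41C and TpnC73F, calcium sensors of the thin filament, had 86.3 to 5011 and 11.2 to 48.7 normalized counts. The tropomyosins Tm1 and Tm2, which cover the myosin-binding sites of actin, had 1945 to 8413 and 662 to 2631. The filament end caps were tmod (pointed end, 121 to 814 normalized counts) and cpa and cpb (the capping protein at the barbed end, 53.1 to 123 and 44.99 to 91.03). The capping protein subunits varied little between libraries.

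The Z-disc and elastic filament genes were sls (Sallimus, a titin-like protein, 1764 to 10571 normalized counts), Actn (alpha-actinin, 682 to 1575), the PDZ-LIM genes Zasp52 (44.4 to 351) and Zasp66 (380 to 823), and the muscle LIM protein genes Mlp60A (1431 to 19457) and Mlp84B (569 to 2078). In the group of calcium handling and other genes, SERCA had 1942 to 8615 normalized counts. Scp1, which encodes a sarcoplasmic calcium-binding protein, ranged from 59.1 to 3281 and Mp20, which encodes a calponin-like protein of tubular muscle, from 225 to 1402. Msp300, a giant nesprin that links nuclei and the cytoskeleton, ranged from 2382 to 19514.

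Of the 31 genes, 30 were above 0 in every library. Their ratio of the highest to the lowest library was between 2.02 (cpb) and 58.1 (TpnC41C), with a median of 6.12. The highest value was in CHD8/+ replicate 2 for 7 genes, in CHD8/+ replicate 3 for 6, in CHD8/+ replicate 4 for 3, in ASH1L/+ replicate 1 for 6, in CHD2/+ replicate 2 for 5, in ASH1L/+ replicate 3 for 3 and in ASH1L/+ replicate 2 for 1. The lowest value was in CHD8/+ replicate 1 for 8 genes and in CHD2/+ replicate 2 for another 8.

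**Figure D1:**
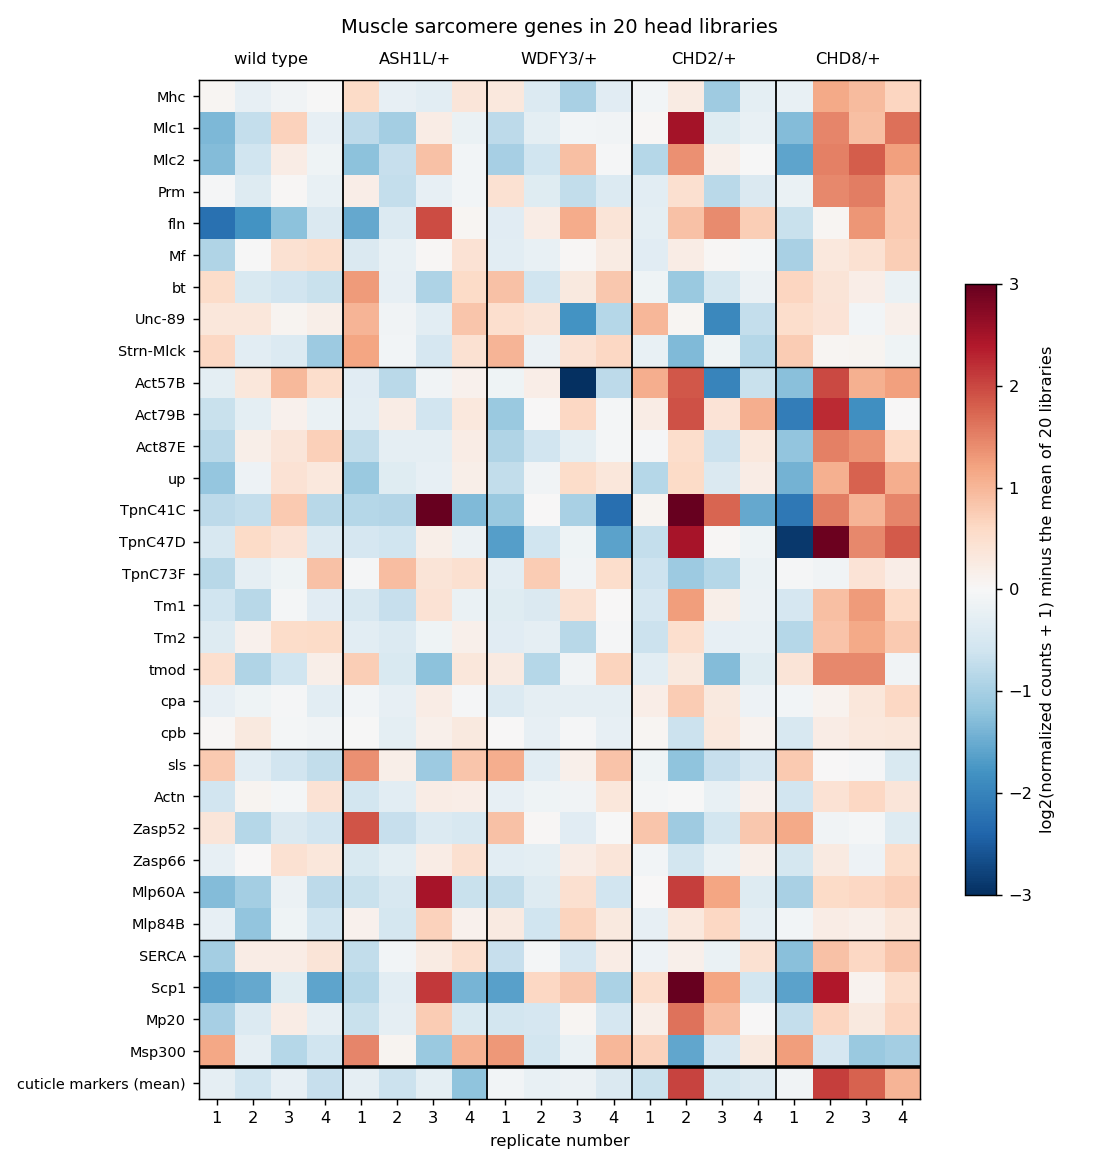
Colour gives log2(normalized counts + 1) of each of the 31 sarcomere genes (lines of the map) in each of the 20 libraries (columns, by genotype and replicate number), minus the gene's mean over the 20 libraries; values beyond 3 take the end colour, and thin lines separate thick filament, thin filament, Z-disc and elastic filament, and calcium handling and other genes. CHD8/+ replicates 2 to 4 are high across most genes, replicate 1 libraries are mostly high for sls, bt, Strn-Mlck and Msp300 and low for Mlc2 and up, and the last line gives the mean of the cuticle markers.

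The first comparison was of each heterozygote with wild type. None of the 31 sarcomere genes was called in any of the 4 comparisons by limma at an adjusted p under 0.05 with a change of at least 1.5-fold. Among all 9588 genes, 0.073% were called higher and 0.0209% lower in ASH1L/+ and 0.0417% and 0.0104% in WDFY3/+. The shares were 0.156% and 0.0313% for CHD2/+ and 0.24% and 0.0313% for CHD8/+. At an unadjusted p under 0.05, the sarcomere genes numbered 1 for ASH1L/+ (all genes 2.61%), 2 for WDFY3/+ (3.26%), 4 for CHD2/+ (6.93%) and 5 for CHD8/+ (3.74%). A log2 fold change had a standard error of 0.44 at the median, so in this fit changes of the size seen for most members could not be told from the spread between replicates. In a limma fit that also takes replicate number as a block, the median standard error was 0.33. The numbers at an unadjusted p under 0.05 were then 2 for ASH1L/+ (all genes 6.22%), 3 for WDFY3/+ (7.41%) and 10 for CHD8/+ (9.27%). CHD2/+ was not counted as paired.

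CHD8/+ was the genotype in which most members lay above wild type. The difference of the log2 means was above 0 for 28 of 31 sarcomere genes, with a median of 0.53, against 48.8% of all genes and a median of -0.01. All 9 thick filament genes were above 0 (median 0.70), as were 11 of 12 thin filament genes tested (0.44), 5 of 6 Z-disc and elastic filament genes (0.41) and 3 of 4 calcium handling and other genes (0.45). TpnC47D reached the minimum in 5 libraries, of which 2 were outside CHD8/+, so it entered the test only through the genotype in which it was high. Without it, 27 of 30 genes and 10 of 11 thin filament genes were above 0, with medians of 0.51 and 0.42. The other genotypes had medians closer to that of all genes. The median was 0.17 in ASH1L/+ with 20 of 31 genes above 0 (all genes 0.03), 0.08 in WDFY3/+ with 16 (all genes 0.01) and -0.01 in CHD2/+ with 15 (all genes -0.02). The comparisons share the wild type libraries and are not independent of each other.

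**Figure D2:**
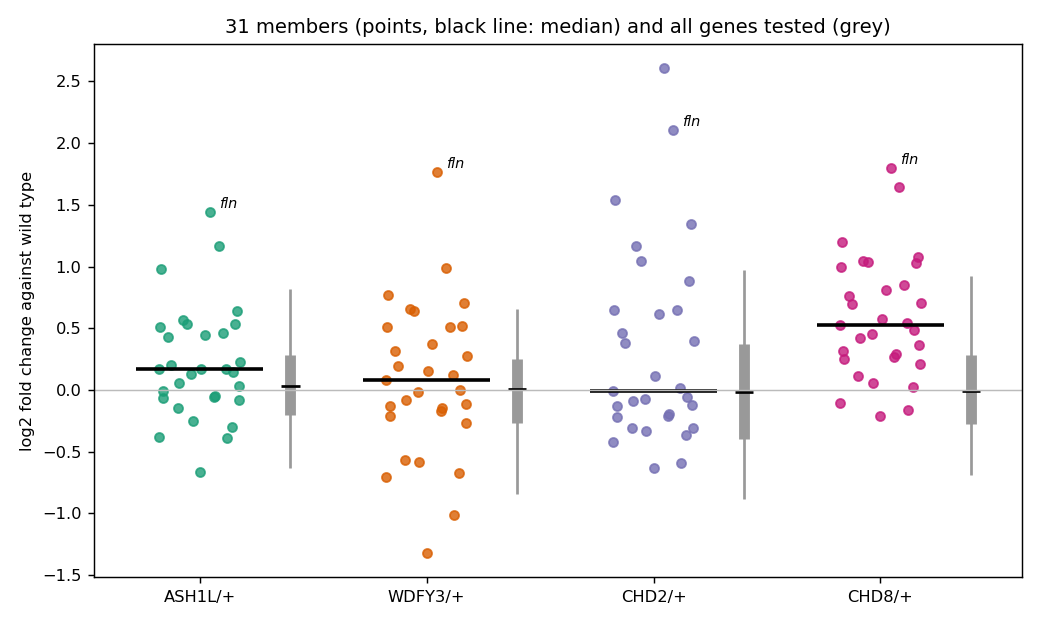
Each point is the log2 fold change against wild type (difference of means of log2(normalized counts + 1), n = 4 each) of 1 of 31 sarcomere genes, the black line is their median, and the grey bar and line beside them span the 25th to 75th and the 5th to 95th percentile of all 9588 genes, with a tick at the median. The medians of the sarcomere genes are 0.17, 0.08, -0.01 and 0.53, and fln is the highest point in all genotypes but CHD2/+, where Scp1 is higher.

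The CHD8/+ values differed strongly between libraries of the same genotype. The mean of log2(normalized counts + 1) over all members found was 8.03 in CHD8/+ replicate 1 and 9.45, 9.20 and 9.06 in replicates 2, 3 and 4, against 8.19 to 8.54 in wild type. Compared with the wild type library of the same number, the median change of the 31 genes was -0.02 for replicate 1, 1.21 for replicate 2, 0.48 for replicate 3 and 0.66 for replicate 4. In these 4 pairs, 15, 29, 26 and 25 of the 31 genes lay above wild type. Of all genes tested, 46.1%, 51%, 52.7% and 51% did, with medians of -0.03, 0.01, 0.05 and 0.02. The 3 libraries with high sarcomere levels were also the 3 CHD8/+ libraries with high cuticle markers. Without them and CHD2/+ replicate 2, a choice made after seeing the data, the median over the sarcomere genes in CHD8/+ was -0.23, and it then rested on 1 CHD8/+ library. That library was set against all 4 wild type libraries. Against wild type replicate 1 alone its median was -0.02, as given above. All 13 cuticle markers tested were above 0 in CHD8/+, with a median of 2.20 on the log2 scale, and 0 were called without and 3 with the replicate block. The 4 haemocyte markers, of which NimC1 was at 0 in 1 library, were also all above 0, with a median of 0.46, and 0 were called without and 1 with the block. These markers were all above 0 in ASH1L/+ too, with a median of 0.20 and 0 called. They summed to 1203 to 1897 normalized counts in CHD8/+ and 905 to 1562 in wild type. A fit with the cuticle marker mean as a covariate was among the alternatives tried. As 3 of the 4 CHD8/+ libraries were those high in these markers, genotype and cuticle level cannot be told apart by it. Over the alternatives other than leaving out 1 library, the CHD8/+ median lay between -0.23 and 0.72. Apart from this fit, the part of cuticle, haemocytes or of tissue composition in the sarcomere gene levels was not tested. In bulk heads, fewer cells of a type and less RNA per cell cannot be told apart.

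Mlc2, on the right arm of chromosome 3 (BDGP6, 3R, 30171438 to 30174551), shows the pattern. It had 4460, 37669, 47030 and 31138 normalized counts in CHD8/+ replicates 1 to 4, and 5349, 8751, 15511 and 12221 in wild type. The replicate 1 library was under every wild type library and the others above all of them. The log2 fold change was 1.20 (SE 0.66; limma adjusted p = 0.998).

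Paramyosin and tropomyosin 1 were, after fln, the sarcomere genes with the smallest p in CHD8/+. Prm had 593, 1849, 1973 and 1175 normalized counts in CHD8/+ and 664, 522, 702 and 583 in wild type. Replicate 1 lay within the wild type range and the other 3 above it. The log2 fold change was 1.04 (SE 0.37; limma adjusted p = 0.759). Tm1, which has muscle and non-muscle isoforms, had 2435, 6471, 8413 and 5204 normalized counts in CHD8/+ and 2296, 1945, 3292 and 2726 in wild type. It was above the wild type library of the same number in 4 of 4 pairs, as were Mlc1, bt, cpa and other sarcomere genes. The log2 fold change of Tm1 was 1.03 (SE 0.40; limma adjusted p = 0.998). Without the 4 libraries high in cuticle markers, CHD8/+ is replicate 1 alone, set against all 4 wild type libraries, and Prm and Tm1 were at -0.0498 and -0.0474. Mlp84B was the 1 sarcomere gene whose CHD8/+ libraries all exceeded every wild type library, a separation seen in 1.91% of all genes. Its normalized counts were 1213, 1509, 1432 and 1631 in CHD8/+ and 1078, 569, 1183 and 850 in wild type.

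Flightin had the smallest p of the sarcomere genes in every one of the 4 comparisons. The gene lies on the left arm of chromosome 3 (BDGP6, 3L, 19989551 to 19991220, minus strand; FBgn0005633). Its wild type libraries had 21.8, 30.1, 44.6 and 78.1 normalized counts. ASH1L/+ had 35.9, 80.2, 418 and 111, and WDFY3/+ had 83.9, 124.5, 232 and 138. The levels were 86.03, 195, 286 and 179 in CHD2/+ and 66.8, 111, 267 and 183 in CHD8/+. Every ASH1L/+, WDFY3/+ and CHD8/+ library exceeded the same-numbered wild type library, 4 of 4 in each genotype. This was not particular to fln, since Tm1, Zasp52, Mlp60A, Mlp84B and Scp1 did so in the same genotypes. The share of all genes that did so was not computed. For fln, the 4 WDFY3/+ and the 4 CHD2/+ libraries lay above every wild type library, whereas ASH1L/+ and CHD8/+ each had 1 library under wild type replicate 4. Separation of this kind was seen in 1.27% of all genes for WDFY3/+ and 3.39% for CHD2/+, where Act79B also showed it.

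The wild type mean of fln was 43.7 ± 24.8 normalized counts (SD, n = 4). ASH1L/+ had 161 ± 174 and WDFY3/+ 145 ± 62.8, and the means of CHD2/+ and CHD8/+ were 187 ± 81.7 and 157 ± 87.5. The log2 fold changes were 1.44, 1.77, 2.11 and 1.80, each with an SE of 0.60. The ASH1L/+ value was 0.79 without replicate 3. The CHD8/+ value was 0.76 when replicate 1 alone was left of that genotype, after removal of the libraries high in cuticle markers. This sets that library against all 4 wild type libraries, and replicate 1 was the lowest library of every genotype for fln. In replicate 1, fln had 66.8 normalized counts in CHD8/+ and 21.8 in wild type. None of the 4 changes passed the limma test that leaves replicate number out, with adjusted p of 0.999, 0.963, 0.308 and 0.618. In the paired fit, which takes replicate number as a block, fln was called higher in WDFY3/+ (adjusted p = 0.0234 from limma) and in CHD8/+ (adjusted p = 0.0112 from limma). It was the only sarcomere gene called in these 2 fits, 1 of 31, against 0.229% and 0.615% of all genes called higher. In ASH1L/+ the paired value was an adjusted p of 0.0999 (limma). CHD2/+ was not counted as paired, and its call of fln with the block is given at the end, with the dependence on processing. All 4 comparisons use the same wild type libraries, so the low wild type values enter each of them.

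**Figure D3:**
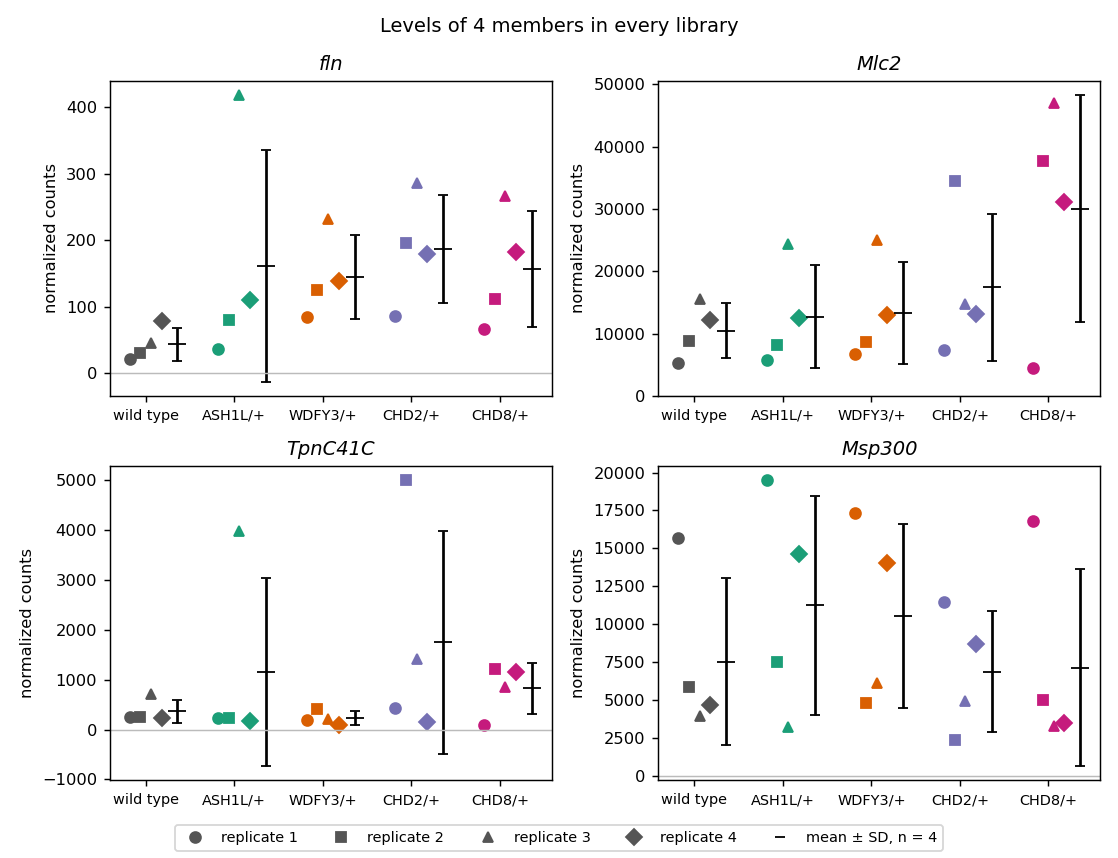
Normalized counts of fln, Mlc2, TpnC41C and Msp300 in every library, by genotype, with the symbol giving the replicate number and the bar the mean ± SD (n = 4); bars that reach under 0 reflect the spread and not measured values. For fln the wild type libraries lie at 21.8 to 78.1, and the replicate 1 library is the lowest of each genotype, while for Msp300 replicate 1 is the highest of each genotype.

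In ASH1L/+, the next smallest p after fln belonged to the muscle LIM protein genes. Mlp84B had 1401, 892, 2078 and 1409 normalized counts, with a log2 fold change of 0.64 (SE 0.32; limma adjusted p = 0.999). Mlp60A had 2221, 2502, 19457 and 2212, against 1431, 1730, 3130 and 2055 in wild type. The log2 fold change of 0.98 (SE 0.63; limma adjusted p = 0.999) rested largely on replicate 3, and it was 0.21 when that library was left out. In WDFY3/+, Mlp84B had 1551, 857, 2046 and 1589 normalized counts (log2 fold change 0.70, SE 0.32; limma adjusted p = 1). Strn-Mlck had 5595, 2435, 3753 and 4223 in WDFY3/+ and 4260, 2208, 2083 and 1295 in wild type (log2 fold change 0.77, SE 0.41; limma adjusted p = 1). It was above the same-numbered wild type library in 4 of 4 pairs, as were up, sls and other sarcomere genes. The lowest change in WDFY3/+ was that of the actin gene Act57B, at -1.32 (SE 0.77), where replicate 3 had 43.6 normalized counts and the other 3 had 207 to 411.

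In CHD2/+, Scp1 had the largest fold change of any sarcomere gene in any genotype, a rank that rested on 1 library. Its CHD2/+ libraries had 269, 3281, 425 and 127 normalized counts and its wild type libraries 59.1, 63.3, 144 and 61.8. The log2 fold change was 2.61 (SE 0.92; limma adjusted p = 0.552), and the libraries overlapped. Without replicate 2 it was 1.67, under the 2.11 of fln in CHD2/+. Mp20 had 510, 1402, 862 and 454 normalized counts in CHD2/+ and 225, 343, 530 and 375 in wild type, with a log2 fold change of 1.05 (SE 0.40; limma adjusted p = 0.601). Both genes were highest in replicate 2. That is the CHD2/+ library with high cuticle markers.

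Another 3 libraries stood out for a few genes, picked here after their values were seen. TpnC41C had 3977 normalized counts in ASH1L/+ replicate 3, 5011 in CHD2/+ replicate 2 and 1407 in CHD2/+ replicate 3, against 86.3 to 1214 in the other 17 libraries. In the same 3 libraries Mlp60A had 19457, 14919 and 8025 normalized counts, against 1431 to 5777 in the others, and Mp20 had 767, 1402 and 862, against 225 to 704. Scp1 was at 810, 3281 and 425 there, which overlapped its range of 59.1 to 995 in the other libraries. The ASH1L/+ and CHD2/+ replicate 3 libraries did not have high cuticle markers (4.02 and 3.78 as mean log2), while CHD2/+ replicate 2 did (6.34). ASH1L/+ replicate 3 also had the highest sum of normalized counts, 8558268.

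The mutants were then compared with each other, without wild type. In the 6 pairs, 0 of 31 sarcomere genes were called by limma, where between 0 and 0.0521% of all genes were called in 1 direction. At an unadjusted p under 0.05 there were 0 sarcomere genes for ASH1L/+ against WDFY3/+ (2.65% of all genes), 3 for ASH1L/+ against CHD2/+ (6.34%) and 1 for ASH1L/+ against CHD8/+ (4.18%). There were 5 for WDFY3/+ against CHD2/+ (8.87%), 6 for WDFY3/+ against CHD8/+ (4.74%) and 4 for CHD2/+ against CHD8/+ (4.42%). Prm had the smallest p among sarcomere genes in each of the 3 pairs with CHD8/+. It was lower by a log2 difference of -1.10 in ASH1L/+, -1.15 in WDFY3/+ and -1.16 in CHD2/+ (SE 0.37 each; limma adjusted p = 0.766, 0.663 and 0.731). Separation of all libraries was seen for cpa, TpnC73F and Strn-Mlck. The capping protein gene cpa was higher in every ASH1L/+ library than in any WDFY3/+ library (0.668% of all genes), and every WDFY3/+ library lay under all those of CHD2/+ (1.85% of all genes) and of CHD8/+ (1.41%), with log2 differences of 0.27, -0.59 and -0.55 (SE 0.24 each). The troponin C gene TpnC73F was higher in every ASH1L/+ library than in CHD2/+ (1.77%), by 1.13 on the log2 scale (SE 0.36), and TpnC73F and Strn-Mlck were lower in every CHD2/+ library than in CHD8/+ (1.39%), at -0.80 and -0.82.

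Sarcomere genes also differed between replicate numbers. In an F test of replicate number with genotype in the model (limma), 20 of 31 sarcomere genes were called, 64.5%, against 51.5% of all genes. This rested on the replicate 1 libraries. Without them 0 of 31 sarcomere genes and 2.45% of all genes were called. Leaving out replicates 2, 3 or 4 left 21 of 30, 16 of 31 and 16 of 31 sarcomere genes called.

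The 20 genes split by direction. The 6 that were higher in replicate 1 were sls, Msp300, bt, Strn-Mlck, Unc-89 and Zasp52. The other 14 were lower in replicate 1. Msp300 had 15668, 19514, 17302, 11437 and 16781 normalized counts in the replicate 1 libraries of wild type, ASH1L/+, WDFY3/+, CHD2/+ and CHD8/+, and 2382 to 14649 in the 15 others. Replicate 1 was the highest library of its genotype in 5 of 5 genotypes for Msp300, sls, bt, Unc-89 and Zasp52 and in 4 of 5 for Strn-Mlck. It was the lowest in 5 of 5 for fln, Mlc2, Mf and up. The mean difference of replicate 1 from the other replicates was 1.56 for Msp300, 1.36 for Zasp52 and 1.04 for sls on the log2 scale. It was -1.59 for Mlc2, -1.41 for up, -1.35 for fln and -1.66 for TpnC47D.

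The direction went with transcript length. By the Ensembl annotation, the 6 genes higher in replicate 1 have the 6 longest annotated transcripts among the 31, from 7418 bases (Zasp52) to 56489 bases (sls). All 7 genes with a longest transcript of at least 7000 bases, Mhc being the seventh, were higher in replicate 1, and 22 of the 24 shorter ones were lower. The limit of 7000 bases was chosen after the values were seen. Among the other genes, 84.8% of 501 at or above this length were higher in replicate 1 and 51.6% of 8851 shorter ones were lower. Across genes, Spearman's correlation of length with the replicate 1 difference was 0.73 over the 31 sarcomere genes and 0.45 over 9383 genes, which share the same libraries and are not independent replicates. SERCA (6306 bases) and Actn (4868 bases), the longest of the genes under this limit, were lower in replicate 1, at -1.03 and -0.53. The libraries were made from the 3' ends of transcripts, and what differed between the replicate numbers was not tested.

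**Figure D4:**
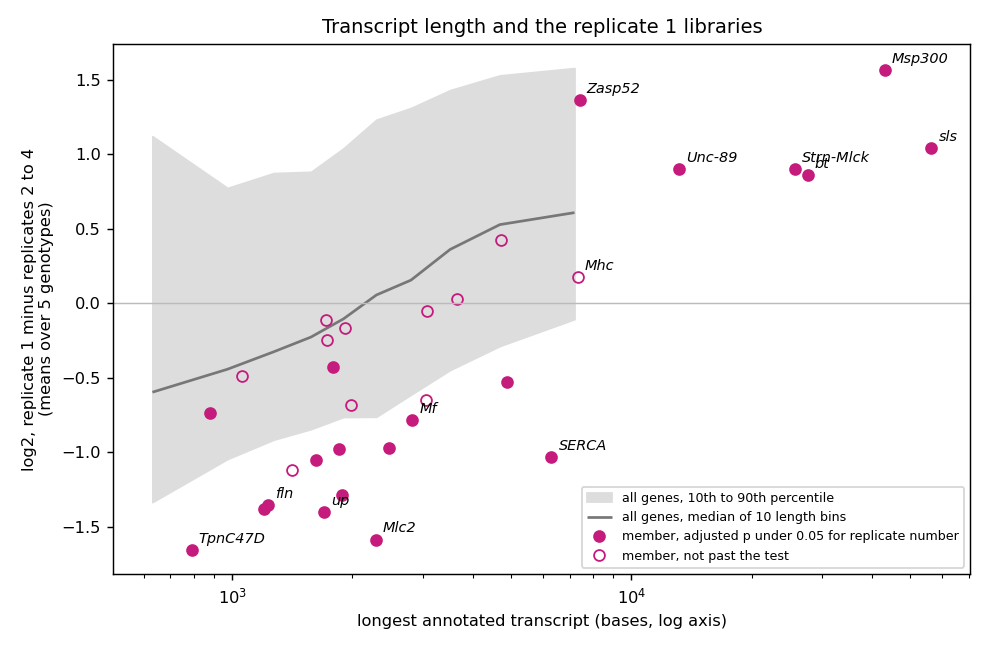
The vertical axis gives the mean log2(normalized counts + 1) of the 5 replicate 1 libraries minus that of the 15 others, and the horizontal axis the longest annotated transcript in bases on a log scale, for 31 sarcomere genes (filled where replicate number passed the F test) over the median and the 10th to 90th percentile of all genes in 10 bins of length. The giant genes sls, Msp300, bt, Strn-Mlck and Unc-89 lie above 0 and most genes with short transcripts, such as Mlc2 and fln, lie under 0.

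Levels of the sarcomere genes moved together across the 20 libraries in several groups, given here as a description since genotype, replicate number and library are shared by all of them. Mhc was most like Prm (Pearson's r = 0.91 over 20 libraries). The giant elastic proteins formed a group, with r = 0.96 between bt and sls and 0.93 between Strn-Mlck and sls, and Msp300 was most like sls (0.88). The regulatory light chain Mlc2 was most like Tm1 (0.93) and up (0.90). SERCA was most like Actn (0.90) and Mf (0.88). Mlp60A was most like Mp20 (0.91) and Scp1 (0.89), and TpnC41C was most like Mlp60A (0.89). Flightin was most like Mlp60A (0.78). Members of these groups ran against the giant proteins, with r = -0.79 between TpnC41C and Msp300 and also between Mlc2 and Msp300. TpnC73F had no close partner, its highest r being 0.38 with Actn.

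Other muscle genes and cytoplasmic counterparts were set beside the sarcomere genes. Of 20 genes of muscle outside the list, such as Mef2, a transcription factor of muscle, RyR, the calcium release channel, and Argk1, arginine kinase, 19 were tested and 0 were called in any comparison with wild type. Their median log2 change was 0.06 for ASH1L/+ and 0.04 for WDFY3/+. It was -0.27 for CHD2/+ and -0.01 for CHD8/+, where 8 of 19 were above 0. The 6 cytoplasmic actin and myosin genes tested, such as the actin Act5C and the non-muscle myosin light chain sqh, had a median of 0.23 in CHD8/+ with 4 of 6 above 0 and 0 called. Within the sarcomere list, the 6 broadly expressed genes had a median of 0.28 in CHD8/+. Neuronal markers had a median of -0.40 in CHD8/+ and -0.79 in CHD2/+, with 0 of 6 called in either. In CHD8/+, the markers of photoreceptors, fat body and glia had medians of 0.26, 0.07 and 0.21, and 0 of 7, 6 and 4 were called.

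The double heterozygote CHD8/+; PPP2R5D/+ was scaled apart from the other tables, so its members were compared by rank only. Within each library, the percentile rank of a gene was taken among the 12476 genes that both tables hold, and no test was run. Of 34 sarcomere genes, Zasp52 alone ranked in all 3 double heterozygote libraries above all 20 others (6.93% of all genes did). Its percentile was 88.95 to 91.77, against 55.92 to 87.02. TpnC41C, cpa and Actn ranked below all 20 (7.09% of all genes). TpnC41C was at 38.8 to 52.3, against 69.3 to 98.8, the widest gap of any sarcomere gene. The capping protein gene cpa was at 50.63 to 58.97, against 60.20 to 73.99, and Actn at 82.2 to 90.2, against 92.6 to 96.3.

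Set against the 4 CHD8/+ libraries alone, Zasp52 and Zasp67 ranked higher in every double heterozygote library (14.4% of all genes) and fln, TpnC41C, Tm1, cpa and Actn ranked lower (16.5%). Zasp67 lay under the minimum for testing, with 0 to 7.92 normalized counts in CHD8/+. Flightin was at 40.1 to 59.1 in the double heterozygote and 63.6 to 83.6 in CHD8/+. The wild type mean for fln, 54.4, lay within the double heterozygote range. Over the 34 genes, the median difference of the mean percentile was -0.84 points from CHD8/+ and -0.08 points from wild type. Some genes could hardly rise, as the lowest rank in any library was 98.1 for Mlc2 and 97.6 for Msp300. A second ranking used only the 7771 genes past a minimum of 10 normalized counts in both sets of libraries. There, the median differences over 30 sarcomere genes were -1.51 and -0.58 points. The shares of sarcomere genes past these limits, 1, 3, 2 and 5 of 34, come to 2.94%, 8.82%, 5.88% and 14.7%, of which only the second, the share below all 20 libraries, exceeded that of all genes. The library labels name a sequencing lane for the other genotypes and none for the double heterozygote, so its sequencing may differ too. The double heterozygote also differs from the others in its table, its scaling and its stock as well as in the second mutation, and all of these cannot be told apart.

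**Figure D5:**
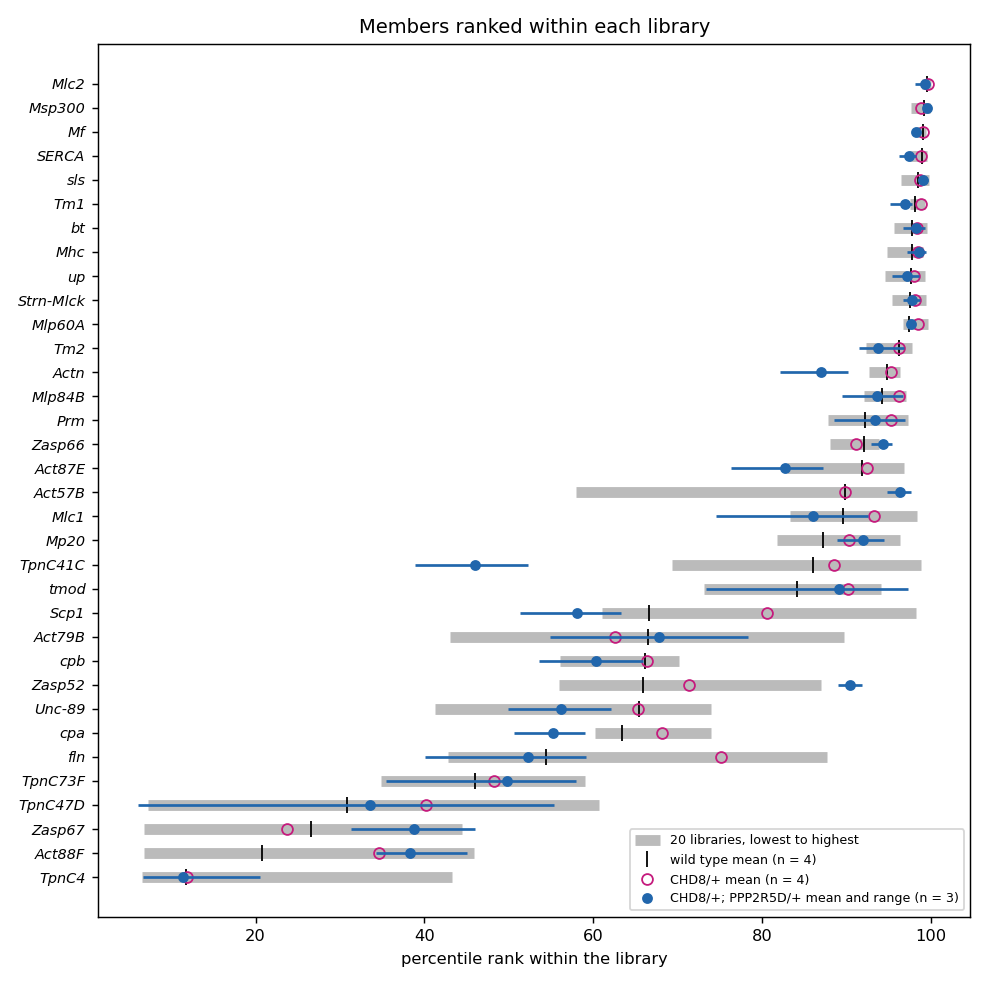
For each of 34 sarcomere genes, the grey bar spans the percentile rank within the library over the 20 libraries of wild type and single heterozygotes, the tick is the wild type mean (n = 4), the open circle the CHD8/+ mean (n = 4), and the blue point and line the mean and range of CHD8/+; PPP2R5D/+ (n = 3). Zasp52 lies above the grey bar, and TpnC41C, cpa and Actn lie below it.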

How the data were processed

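RNA of adult heads was sequenced in 23 libraries. The authors quantified reads against BDGP6 with Salmon 0.12.0 and, per the labels, used DESeq2. The deposited signal values are normalized counts, that is, estimated counts which the authors divided by scaling factors. Being fractional, and with no whole reads recoverable, they were given no count model. The 5 tables of wild type and single heterozygotes share 1 scale, and that of the double heterozygote was scaled apart.

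Values were log2-transformed with 1 added. The filter asked for 10 or more in 4 or more of the 20 libraries, and the genes left entered limma 3.58.1 (R 4.3.3) with a mean-variance trend, 1 mean per genotype and Benjamini-Hochberg adjustment over all 9588 genes. Calls needed an adjusted p under 0.05 and at least 1.5-fold. Each mutant was compared with wild type and with each other mutant. Tables were made with pandas 2.3.3 and numpy 2.4.6 under Python 3.11.15, and figures with matplotlib 3.10.9. The code was tested on simulated data.

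The study's model has a batch term, and the batch of each library is not given in the sources used here. Replicate numbers 1 to 4 counted as pairing a mutant with wild type where the deviations from group means correlated above 0.1 for every number. This held for ASH1L/+ (0.78, 0.34, 0.49, 0.64), WDFY3/+ (0.74, 0.32, 0.44, 0.56) and CHD8/+ (0.73, 0.25, 0.28, 0.21), and not for CHD2/+ (0.33, 0.07, 0.28, 0.46).

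Members and lists were chosen with earlier results of these data known. Statistics are given for genes called in any comparison with or without the block and for the 3 smallest p in each comparison with wild type; a few others were named after their values were seen. Markers were fixed lists of neurons, photoreceptors, fat body, cuticle and epidermis, glia and haemocytes. The spread between replicates gave a median SE of 0.436 for a log2 fold change, and 0.330 with the replicate block. Other normalizations, filters, added constants, fits and libraries left out were tried as 35 alternatives. Transcript lengths came from a later Ensembl release than the study used.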

Additional observations from a re-analysis of the deposited data

Results flagged for a closer look

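In 210 groups of 4 libraries, the highest or lowest library was checked for standing apart from the other 3, and 25 did. Each group was 1 sarcomere gene or gene group in 1 genotype. The limit used is passed about 1 time in 20 by independent, normally distributed values. Gene values were not log-transformed here and the groups share genes and libraries, so the 25 cannot be set against that rate. By library, CHD8/+ replicate 1 accounted for 6 of the 25, ASH1L/+ replicate 3 and CHD2/+ replicate 2 for 5 each, wild type replicate 1 for 3 and wild type replicate 3 for 2. All values below are normalized counts unless a mean log2 level is named, and no cause was tested.

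Replicate 1 libraries stood apart for long transcripts and a few others. In wild type replicate 1, bt was at 4231, Msp300 at 15668 and SERCA low at 2296. In ASH1L/+ replicate 1, Zasp52 was at 351. In CHD8/+ replicate 1, Zasp52 was high at 211 and Msp300 at 16781, while Mlp60A was low at 1794. The mean log2 level in that library was low for the thick filament genes (9.85), the genes grouped as flight muscle genes (3.49) and the broadly expressed genes (9.57). In WDFY3/+ replicate 1, cpa was low at 53.1.

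ASH1L/+ replicate 3 was high for TpnC4 (19.2), TpnC41C (3977), Mlp60A (19457) and Scp1 (810). Its mean log2 level was 6.64 over the genes grouped as flight muscle genes, which include TpnC4 and TpnC41C. CHD2/+ replicate 2 was high for Mlc1 (3624), TpnC47D (40.2) and Scp1 (3281), and its mean log2 level was 9.10 over all sarcomere genes and 7.82 over the thin filament genes. Wild type replicate 3 was high for TpnC41C (719) and Scp1 (144). In WDFY3/+, Act88F stood at 8.39 in replicate 2 and Mp20 at 475 in replicate 3.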

How the results depend on the processing

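Members called were 0 of 31 against wild type whichever of the 20 libraries was left out. Over these fits the median change lay between 0.0004 and 0.28 in ASH1L/+, -0.16 and 0.18 in WDFY3/+, -0.06 and 0.16 in CHD2/+ and 0.47 and 0.82 in CHD8/+. With the replicate block, the paired fit, 1 sarcomere gene (fln) was called in WDFY3/+ and CHD8/+. It was also called in CHD2/+ (adjusted p = 0.0032 from limma), against 0.897% of all genes called higher. In CHD2/+ replicate number was not counted as a pairing. The block changed no other call of a sarcomere gene. With array weights, 1 was called in CHD2/+ (fln), 3 in CHD8/+ (fln, Prm and Tm1 at 1.99, 1.35 and 1.33) and 1 between mutants. With the block and array weights together, chosen after seeing the data, fln alone was called in each of the 4 mutants, 1 in each, and 2 sarcomere genes between mutants. For all genes, only the range over all alternatives is given below, so the counts with array weights have no share of all genes beside them. Without the 4 libraries highest in cuticle markers, also chosen afterwards and leaving CHD8/+ with replicate 1 alone, the CHD8/+ median was -0.23, Prm -0.0498 and Tm1 -0.0474. Replicate 1 was then set against all 4 wild type libraries, and against wild type replicate 1 alone its median was -0.02. Genes called of all tested varied from 4 to 143 in ASH1L/+ (9 as reported), 2 to 83 in WDFY3/+ (5), 7 to 226 in CHD2/+ (18) and 1 to 113 in CHD8/+ (26). For replicate number, leaving out 1 number gave 0 to 21 members called. Among marker genes, the block called 1 neuronal marker lower in CHD2/+. The cause of these shifts was not tested. Values came without read depth, groups had 4 libraries, and a median SE of 0.44, or 0.33 with the replicate block, leaves small changes undetectable.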
